A study of Beta vulgaris with 9 samples.

Results

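The genes described here are those of sugar beet (Beta vulgaris, cultivar KWS0143) whose product name marks them as carriers or chelators of metals: zinc transporters, metal tolerance proteins, copper-transporting ATPases, ferric reductases, metal-nicotianamine transporters, an Nramp transporter, magnesium transporters, heavy metal-associated isoprenylated proteins and a molybdate carrier. They were found by matching those words in the product names and came to 25 of 24351 protein-coding gene identifiers. The match itself used no measured value, but the set was chosen with earlier results of these data known. Only 6515 of the identifiers carry a product name, so metal genes without a name could not enter. RNA was sequenced from leaves of hydroponic seedlings, labelled as 5 weeks old in every group and grown in Hoagland solution, in 3 groups of 3 libraries that the labels call biological replicates. Control leaves (C) were taken at day 0 without alkaline salts, short-term leaves (ST) after 3 days and long-term leaves (LT) after 7 days in the same solution with 75 mM of Na2CO3 and NaHCO3 mixed at 1:2. Controls were taken at day 0 only, so alkaline treatment, leaf age and harvest day cannot be told apart.

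Plants need zinc, iron, copper, manganese, magnesium and molybdenum as parts of enzymes and of the photosynthetic apparatus, yet the free ions are harmful in excess, so cells keep them bound or in compartments. Carriers of the ZIP and Nramp families bring divalent metals into the cytosol, metal tolerance proteins and P-type ATPases move them out of it into organelles, vesicles or the apoplast, and nicotianamine chelates metals on their way between cells. Iron and zinc dissolve poorly in alkaline media, and ferric reductases convert ferric into ferrous iron before it is taken up across membranes.

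Expression was given as FPKM, fragments set to transcript length and to the size of the library, which allows levels of different genes to be compared. The FPKM of a gene is the sum over its transcripts. Read counts were not analysed, so sequencing depth, and with it the counting error of weakly expressed genes, is unknown. The summed FPKM of all listed transcripts was 1096069 to 1115393 in control and 1088388 to 1119080 in short-term libraries, and lower in every long-term library, at 915463 to 1038379. The part from protein-coding transcripts was instead highest in long-term libraries. It was 441417 to 458362 in control, 443078 to 462244 in short-term and 462460 to 472614 in long-term libraries. Control replicate 1 stood apart: on the first principal component of all genes tested (65.6% of the variance) it had a score of 1.07, away from the other controls at -55.8 and -71.9 and beside short-term replicates 2 and 3 at 0.25 and 3.22. Long-term replicate 1, at 22.8, also lay away from its group at 57.1 and 63.5, and short-term replicate 1 was at -20.3. The leaf label was met by its markers: all 23 genes for the small subunit of Rubisco, chlorophyll-binding proteins and photosystem I were over 0.5 FPKM. Their summed level was 48311 to 62298 FPKM in control, 31209 to 42707 in short-term and 23907 to 37432 in long-term leaves, and the part of this shift in the results that follow was not tested. Of the other cell types, a phloem sucrose transporter was at 2.42 to 3.80, 4.20 to 5.45 and 4.77 to 5.58 FPKM in the 3 groups, a guard cell gene did not pass 0.06 FPKM, and no root or senescence marker was found by name. In such bulk leaf samples fewer cells of a type and less RNA per cell cannot be told apart.

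Levels of the metal genes differed widely. Of the 25 genes, 5 had a mean over 20 FPKM, 18 lay between 1 and 20 FPKM and 2 were under 1 FPKM. The highest was ferric reduction oxidase 7 with a mean of 106.9 FPKM over the 9 libraries, followed by zinc transporter 4 with 76.0, metal tolerance protein 11 with 35.7, the metal-nicotianamine transporter YSL7 with 35.3 and the magnesium transporter MRS2-11 with 25.1 FPKM. Metal tolerance protein 11 and YSL7 overlapped in every group and were not set apart by level. At the low end, the copper ATPase HMA5 averaged 2.01 FPKM and the molybdate carrier 2.49 FPKM. The remaining pair, a further MRS2-I gene (LOC104886815) and a HIPP39-like gene (LOC109134737), did not exceed 0.29 and 0.23 FPKM in any library and entered no test, which left 23 genes.

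**Figure D1:**
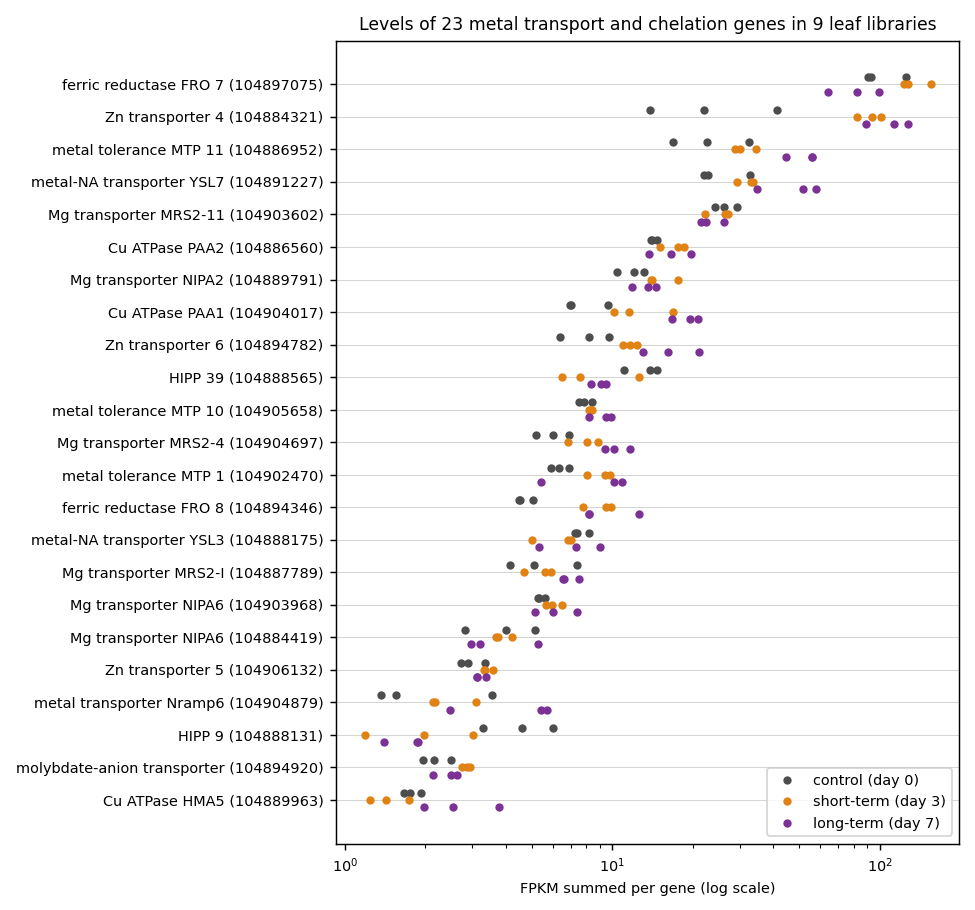
Each dot is the FPKM of a gene in a library, on a log axis, for the 23 tested metal genes ordered by mean level; grey is control, orange short-term and purple long-term. Ferric reduction oxidase 7 (mean 106.9 FPKM) and zinc transporter 4 (mean 76.0 FPKM) stand above the rest, and only zinc transporter 4 among them has its control dots well below all 6 dots of treated leaves.

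The FPKM of all metal genes together was higher in treated leaves, and zinc transporter 4 made up the larger part of that difference. The sum was 280 to 354 FPKM in control leaves (median 331), 420 to 485 in short-term leaves (median 447) and 435 to 495 in long-term leaves (median 472). Zinc transporter 4 held 4.94% to 11.7% of the sum in control leaves, 19.3% to 22.6% in short-term and 20.4% to 27.1% in long-term leaves. Without it the sums were 266 to 313, 337 to 391 and 344 to 382 FPKM, so that the groups of treated leaves overlapped each other but not the controls. Ferric reduction oxidase 7 held 26.3% to 37.9% of the sum in control leaves, 27.6% to 32.1% in short-term leaves and 14.7% to 21.1% in long-term leaves.

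To ask which metal genes differed between groups, log2(FPKM + 1) was fitted with limma over all 14491 genes with a group mean over 0.5 FPKM, and p-values were adjusted over all of them by the Benjamini-Hochberg method, with calls at an adjusted p under 0.05. Log2 changes are on the scale of log2(FPKM + 1), which understates those of low genes. The median of all genes shifted by 0.11 after 3 days and 0.26 after 7 days against control, so changes are given relative to that median, while the test itself was of the unshifted difference. The comparisons share the control libraries and are therefore not independent of each other.

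In short-term leaves 0 of the 23 tested metal genes passed the test, against a background of 0.0759% of all genes called higher and 0.0276% called lower. At an unadjusted p under 0.05, limma had 9 of them, 7 higher and 2 lower, or 39.1% beside 22.2% of all genes, and a limma fit that weights the libraries called 5, all higher (21.7%, beside 10.2% of all genes called higher and 4.97% lower in that fit). In long-term leaves 7 metal genes rose and 1 fell. The share that rose, 30.4%, was near the background of 31.1% of all genes called higher, and the 4.35% that fell stood beside a background of 7.23% called lower, so the counts alone did not set the metal genes apart. The median relative change over the 23 genes was 0.13 against control after 3 days and -0.06 after 7 days, where the median of all genes is 0 by construction. Weighting the libraries raised the long-term count to 13, or 56.5% beside 53.3% of all genes in that fit. Leaving out control replicate 1 gave 10 (9 higher and 1 lower), or 43.5% beside 39.9% of all genes. The direction of the background depended on the scaling: after median-ratio scaling 10% of all genes were called higher and 12.8% lower in long-term leaves, and of the metal genes 6 were called higher (26.1%) and 3 lower (13.0%).

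**Figure D2:**
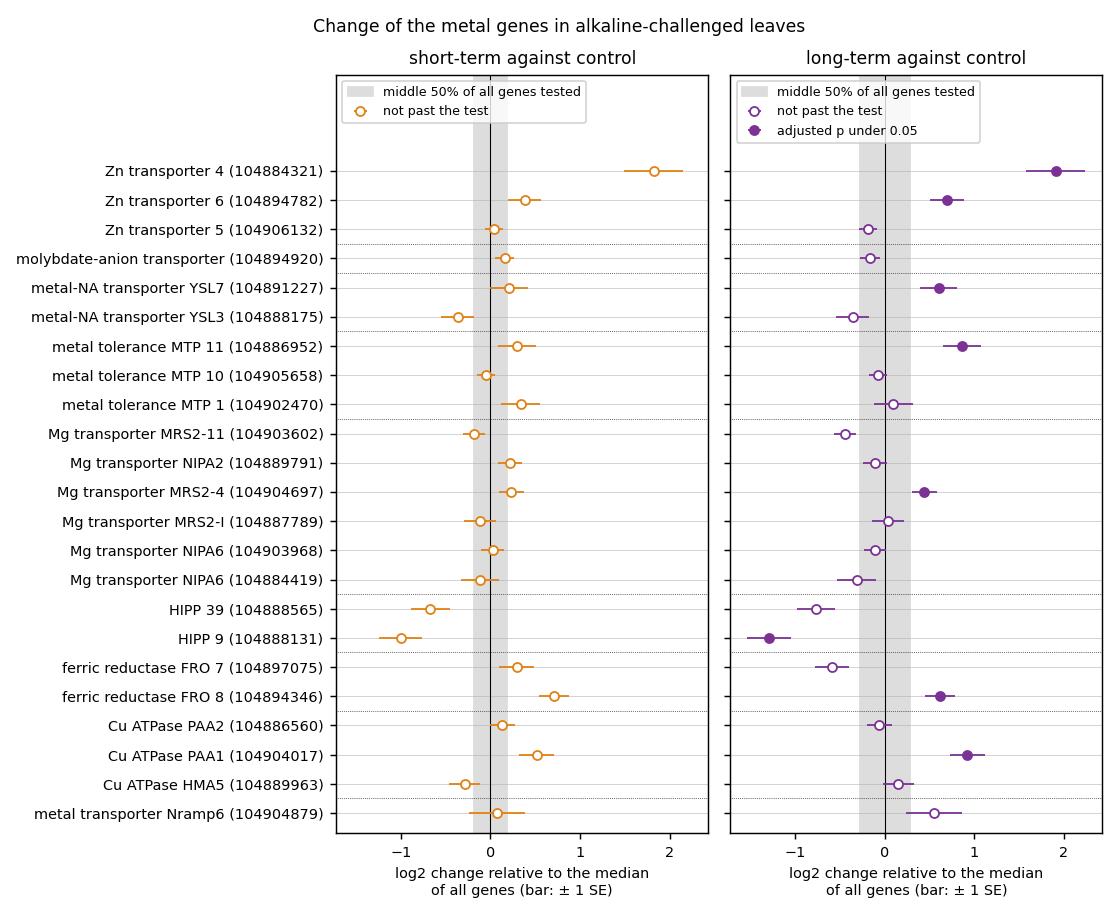
Points give the log2 change of each tested metal gene relative to the median of all genes, with bars of 1 SE, in short-term (left) and long-term leaves (right) against control; filled points passed the test and dotted lines separate the families. The grey band holds the middle 50% of all genes tested. In long-term leaves 7 filled points lie to the right, led by zinc transporter 4 at 1.91, and HIPP9 lies to the left at -1.29.

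Zinc transporter 4 had the largest relative change of the 23 genes in both comparisons with control. The zinc transporters held 2 of the 7 rises, zinc transporters 4 and 6, while zinc transporter 5 passed no test. In Arabidopsis, ZIP carriers of this kind import zinc into the cytosol, and several of their genes are induced when zinc is short. Zinc transporter 4 (LOC104884321, NW_017567587.1, 130537 to 136555, minus strand; genome build not given in the sources used here, as for all positions below) was at 41.4, 22.0 and 13.8 FPKM in the control libraries, at 82.4, 101 and 93.7 FPKM in the short-term and at 127.9, 88.6 and 113 FPKM in the long-term libraries. All treated libraries lay above all controls, and control replicate 1 was the highest of its group. The mean rose from 25.7 ± 14.2 FPKM (SD, n = 3) in control to 110.0 ± 19.9 FPKM in long-term leaves, 4.27 times as high, with a relative log2 change of 1.91 ± 0.33 (SE; adjusted p = 0.00499, limma with Benjamini-Hochberg adjustment). This call held in all 18 alternatives, with adjusted p between 0.000747 and 0.0254.

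In short-term leaves the mean of zinc transporter 4 was 92.4 ± 9.35 FPKM, 3.59 times the control mean, and the relative log2 change of 1.82 ± 0.33 (SE) did not pass (adjusted p = 0.0615, limma with Benjamini-Hochberg adjustment). Without control replicate 1 it did pass, at an adjusted p of 0.0144 and a relative change of 2.20, in a range from 0.00743 to 0.244 over the alternatives. Long-term and short-term leaves overlapped (adjusted p = 0.661).

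Zinc transporter 6 (LOC104894782, NC_025816.2, 51739386 to 51742520, minus strand) was at 9.75, 8.16 and 6.40 FPKM in control, 11.0, 11.7 and 12.4 FPKM in short-term and 13.1, 16.1 and 21.0 FPKM in long-term libraries. The 3 groups did not overlap and lay in the order of the days. It rose 2.07-fold in long-term leaves, with a relative log2 change of 0.69 ± 0.19 (SE; adjusted p = 0.00888, limma with Benjamini-Hochberg adjustment), and its short-term difference did not pass (adjusted p = 0.175). Zinc transporter 5 (LOC104906132) lay between 2.73 and 3.59 FPKM in all 9 libraries, and its control and treated values overlapped (adjusted p = 0.553 in long-term leaves).

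Among metal tolerance proteins, the cation diffusion facilitators that load metals into vacuoles and vesicles, 1 of 3 rose. In Arabidopsis, MTP11 carries manganese into compartments of the secretory pathway. Metal tolerance protein 11 (LOC104886952, NC_025813.2, 21006799 to 21012613, minus strand) was at 32.6, 22.7 and 16.8 FPKM in control, 30.0, 28.9 and 34.5 FPKM in short-term and 44.7, 55.7 and 55.8 FPKM in long-term libraries. All long-term values lay above the other 6, and the short-term values lay around the highest control, replicate 1. The gene rose 2.17-fold in long-term leaves, with a relative log2 change of 0.87 ± 0.22 (SE; adjusted p = 0.00837, limma with Benjamini-Hochberg adjustment).

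MTP1, in Arabidopsis a vacuolar carrier of zinc, did not pass the test in either comparison. Metal tolerance protein 1 (LOC104902470) was at 5.92, 6.88 and 6.34 FPKM in control, 9.77, 8.07 and 9.40 FPKM in short-term and 5.42, 10.9 and 10.1 FPKM in long-term libraries. Long-term replicate 1 alone lay below the controls, and without it the long-term difference passed at an adjusted p of 0.00909 (limma with Benjamini-Hochberg adjustment), against 0.210 with it and a range from 0.00909 to 0.792. Metal tolerance protein 10 (LOC104905658), of the manganese group of the family, stayed between 7.48 and 9.86 FPKM in every library (adjusted p = 0.158 in long-term leaves).

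Of the copper-transporting P-type ATPases, 1 of 3 rose. In Arabidopsis, PAA1 brings copper across the chloroplast envelope and PAA2 passes it on into thylakoids, where plastocyanin uses it, while HMA5 exports copper from cells. PAA1 (LOC104904017, NC_025820.2, 35181712 to 35190656, plus strand) was at 9.68, 7.01 and 6.94 FPKM in control, 10.1, 16.9 and 11.5 FPKM in short-term and 16.7, 19.6 and 20.8 FPKM in long-term libraries. No treated library was as low as a control, although short-term replicate 1 exceeded control replicate 1 only slightly. PAA1 rose 2.42-fold in long-term leaves, with a relative log2 change of 0.92 ± 0.20 (SE; adjusted p = 0.0059, limma with Benjamini-Hochberg adjustment), and the short-term change of 0.51 ± 0.20 did not pass (adjusted p = 0.124).

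PAA2 (LOC104886560) had the higher level of the pair in control leaves, with 14.6, 14.0 and 14.1 FPKM against 15.1, 18.6 and 17.6 FPKM in short-term and 16.6, 19.8 and 13.8 FPKM in long-term libraries. Its control and long-term values overlapped, and the difference did not pass (adjusted p = 0.262, limma with Benjamini-Hochberg adjustment). The mean of PAA1 was 7.88 ± 1.56 FPKM (SD, n = 3) beside 14.2 ± 0.36 FPKM for PAA2 in control leaves, and 19.0 ± 2.13 beside 16.7 ± 3.00 FPKM in long-term leaves, where the pair overlapped. HMA5 (LOC104889963) was lower, at 1.67 to 1.92 FPKM in control, 1.24 to 1.74 in short-term and 1.97 to 3.78 FPKM in long-term libraries. Its long-term values lay above all others without passing the test (adjusted p = 0.0874), and passed without long-term replicate 1, the lowest of them (0.0284; range 0.0284 to 0.421).

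**Figure D3:**
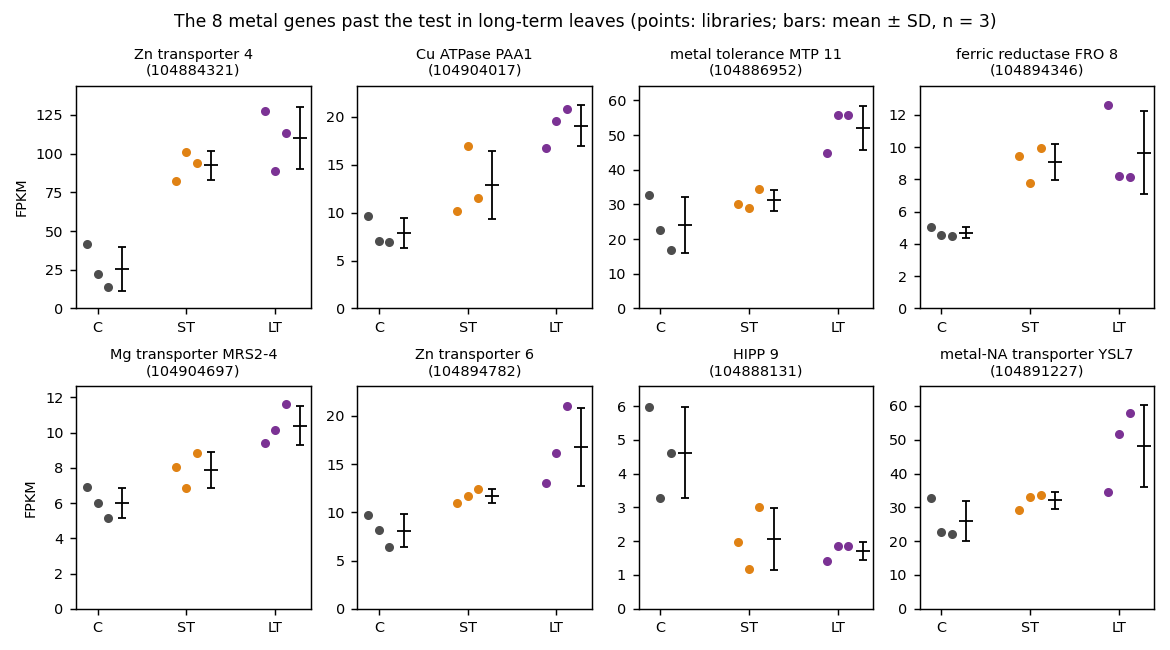
FPKM in each library (points) and mean ± SD (bars, n = 3) of the 8 metal genes that passed the test in long-term leaves, with control (C), short-term (ST) and long-term (LT) leaves side by side and each axis from 0. In every panel the long-term points lie beyond all 3 control points, above them in 7 genes and below them in HIPP9. Such a separation was common. Long-term values lay wholly above control in 34.8% of the 23 tested metal genes beside 38% of all genes tested. They lay wholly below control in 8.7% beside 9.85%.

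Of the ferric reductases, FRO8 rose in long-term leaves and FRO7, the most abundant of all the metal genes, did not pass against control. Both measured members are named after organelle enzymes of Arabidopsis, FRO7 of the chloroplast and FRO8 of the mitochondrion. Ferric reduction oxidase 8 (LOC104894346, NC_025816.2, 47555212 to 47560049, plus strand) was at 5.06, 4.53 and 4.50 FPKM in control, 9.46, 7.79 and 9.93 FPKM in short-term and 12.6, 8.18 and 8.15 FPKM in long-term libraries. All treated values lay above all controls, with long-term replicate 1 the highest. The gene rose 2.05-fold in long-term leaves, with a relative log2 change of 0.62 ± 0.17 (SE; adjusted p = 0.0085, limma with Benjamini-Hochberg adjustment), and the similar short-term change of 0.70 ± 0.17 did not pass (adjusted p = 0.0689).

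Ferric reduction oxidase 7 (LOC104897075, NC_025817.2, 44261566 to 44268678, plus strand) was at 93.2, 125.5 and 90.1 FPKM in control, 127.6, 123.3 and 155.7 FPKM in short-term and 99.7, 64.1 and 82.6 FPKM in long-term libraries. Control leaves overlapped with both treated groups, whereas every long-term library was below every short-term one. Against control, the relative log2 changes were 0.29 ± 0.19 (SE) after 3 days and -0.59 ± 0.19 after 7 days. The unshifted changes of 0.40 and -0.33, which were the values tested, did not pass (adjusted p = 0.260 and 0.199, limma with Benjamini-Hochberg adjustment). Long-term leaves had 0.606 times the short-term mean, a relative log2 difference of -0.88 ± 0.19. The unshifted difference of -0.73, which was the value tested, did not pass either (adjusted p = 0.0904, limma with Benjamini-Hochberg adjustment). It passed without long-term replicate 1, the highest of its group, at 0.0404 in a range from 0.0157 to 0.277.

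Of the metal-nicotianamine transporters, named after the yellow stripe carriers of metal chelates, YSL7 rose in long-term leaves and YSL3 did not pass. YSL7 (LOC104891227, NC_025815.2, 19112037 to 19122436, plus strand) was at 32.7, 22.9 and 22.0 FPKM in control, 29.3, 33.1 and 33.7 FPKM in short-term and 34.7, 51.8 and 57.9 FPKM in long-term libraries. Long-term replicate 1 was close to control replicate 1 and to the short-term libraries, and the other long-term libraries were well above them. The rise was 1.86-fold, with a relative log2 change of 0.60 ± 0.21 (SE; adjusted p = 0.0166, limma with Benjamini-Hochberg adjustment). This was the least stable of the calls: it was lost after median-ratio scaling (0.0754), without control replicate 2 (0.0565), without control replicate 3 (0.0628) and without long-term replicate 2 (0.0609), in a range from 0.00157 to 0.0754.

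YSL3 (LOC104888175), which in Arabidopsis moves metal-nicotianamine complexes out of the veins and from senescing leaves, was at 8.21, 7.25 and 7.40 FPKM in control, 4.99, 7.04 and 6.84 FPKM in short-term and 5.31, 7.30 and 9.02 FPKM in long-term libraries. Its short-term values lay below all controls without passing the test, and its long-term values spread around them (adjusted p = 0.450 and 0.699, limma with Benjamini-Hochberg adjustment). No nicotianamine synthase was among the named genes. Metal transporter Nramp6 (LOC104904879), of the proton-coupled carriers of iron, manganese and cadmium, was at 3.55, 1.56 and 1.37 FPKM in control, 2.17, 2.14 and 3.08 FPKM in short-term and 2.47, 5.43 and 5.71 FPKM in long-term libraries. Control replicate 1 and long-term replicate 1 lay toward each other across the groups, and the long-term change of 0.55 ± 0.31 (SE) did not pass (adjusted p = 0.0688). Leaving out either of these libraries brought it past the threshold, at 0.0183 and 0.0197, in a range from 0.0062 to 0.303.

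Magnesium transporters were the largest family, with 7 genes of which 6 were tested, and 1 rose. The MRS2 proteins are magnesium channels of the CorA type, in Arabidopsis found in several membranes including those of the chloroplast for MRS2-11 and the endoplasmic reticulum for MRS2-4. MRS2-4 (LOC104904697, NC_025820.2, 41743872 to 41752189, minus strand) was at 6.90, 5.98 and 5.16 FPKM in control, 8.02, 6.83 and 8.85 FPKM in short-term and 9.43, 10.2 and 11.6 FPKM in long-term libraries. Long-term libraries were above all others, while control and short-term libraries overlapped. The gene rose 1.73-fold in long-term leaves, with a relative log2 change of 0.44 ± 0.14 (SE; adjusted p = 0.00874, limma with Benjamini-Hochberg adjustment).

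The most abundant magnesium transporter, MRS2-11 (LOC104903602, NC_025820.2, 26696172 to 26703944, minus strand), was at 24.2, 26.2 and 29.2 FPKM in control, 27.0, 22.3 and 26.5 FPKM in short-term and 26.2, 22.4 and 21.5 FPKM in long-term libraries. Its groups overlapped, and the relative log2 change of -0.44 ± 0.12 (SE) in long-term leaves did not pass (adjusted p = 0.273, limma with Benjamini-Hochberg adjustment), except after median-ratio scaling (0.0393; range 0.0393 to 0.567). The tested MRS2-I gene (LOC104887789) lay between 4.13 and 7.53 FPKM in all libraries (adjusted p = 0.197 in long-term leaves), and without its highest control, replicate 1, it passed at 0.0261 (range 0.0261 to 0.986).

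The NIPA genes, named after a family of magnesium transporters known from mammals, showed no call. NIPA2 (LOC104889791) was at 10.4 to 13.1 FPKM in control, 14.0 to 17.6 in short-term and 11.8 to 14.6 FPKM in long-term libraries, so that only the short-term group lay clear of the controls (adjusted p = 0.198, limma with Benjamini-Hochberg adjustment). One NIPA6 gene (LOC104903968) stayed between 5.14 and 7.40 FPKM and the other (LOC104884419) between 2.81 and 5.29 FPKM across the libraries. The span of the second overlaps by 5515 bp, on the opposite strand, with an unnamed gene that did not exceed 1.15 FPKM.

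Heavy metal-associated isoprenylated plant proteins (HIPPs), small metal-binding proteins with a lipid anchor that are regarded as metal chaperones, held the only gene that fell. HIPP9 (LOC104888131, NC_025814.2, 2860267 to 2864496, plus strand) was at 5.98, 3.27 and 4.61 FPKM in control, 1.98, 1.18 and 3.02 FPKM in short-term and 1.41, 1.87 and 1.85 FPKM in long-term libraries. Every treated library was below every control, with short-term replicate 3 close to control replicate 2. The gene fell to 0.370 times the control mean in long-term leaves, with a relative log2 change of -1.29 ± 0.24 (SE; adjusted p = 0.0151, limma with Benjamini-Hochberg adjustment). Without control replicate 3 the call was lost (0.0515; range 0.00982 to 0.0515), and the short-term change of -1.0 ± 0.24 did not pass (adjusted p = 0.0974).

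HIPP39 (LOC104888565, NC_025814.2, 8315183 to 8316431, plus strand) was at 14.7, 11.0 and 13.8 FPKM in control, 6.46, 12.6 and 7.59 FPKM in short-term and 9.50, 8.32 and 9.05 FPKM in long-term libraries. Its long-term values lay below all controls, and among the short-term libraries replicate 2 lay with the controls. The relative log2 change of -0.76 ± 0.21 (SE) in long-term leaves did not pass (adjusted p = 0.0912, limma with Benjamini-Hochberg adjustment). It passed after median-ratio scaling (0.0403), in a fit of the 2 groups alone (0.0466) and without short-term replicate 2 (0.0282), in a range from 0.0282 to 0.352.

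The molybdate-anion transporter (LOC104894920), named for the import of molybdate, was at 2.15, 2.48 and 1.96 FPKM in control, 2.93, 2.75 and 2.87 FPKM in short-term and 2.50, 2.63 and 2.14 FPKM in long-term libraries. The short-term libraries were above all the others without passing the test, and the control and long-term libraries overlapped (adjusted p = 0.190 and 0.479, limma with Benjamini-Hochberg adjustment).

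Between long-term and short-term leaves 0 of the 23 metal genes passed in limma, beside 0% of all genes called higher and 0% called lower. At an unadjusted p under 0.05 there were 7, 6 higher and 1 lower (FRO7), or 30.4% beside 27.7% of all genes, and the fit that weights the libraries called 7, or 30.4% beside 26.2% of all genes. Without long-term replicate 1 there were 3 calls, beside 8.74% of all genes: HMA5 (adjusted p = 0.0397, limma with Benjamini-Hochberg adjustment; range 0.0234 to 0.277), YSL7 (0.0449; range 0.0258 to 0.353) and FRO7, given above. The groups did not overlap in 8 genes, 6 higher (26.1%, beside 27.3% of all genes tested) and 2 lower (8.70%, beside 6.57%): zinc transporter 6, metal tolerance protein 11, YSL7, MRS2-4, the tested MRS2-I gene and HMA5 were higher in long-term leaves, and FRO7 and the molybdate carrier were lower.

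The 25 genes are listed with 60 transcripts, and 6 of them with 1 transcript each. For 4 genes the shares of the transcripts are given as a description, since no test of shares was made. The shorter transcript of the molybdate carrier (XM_019250040.1, 1877 nt) made up 48.9%, 27.3% and 34.6% of the gene in control libraries and 20.9% in short-term replicate 1, and was listed at 0 in the other 5 libraries. For this gene the most abundant transcript alone passed in long-term leaves (adjusted p = 0.0264, limma with Benjamini-Hochberg adjustment; range 0.0264 to 0.799), where the sum over transcripts did not.

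Transcript XM_010690275.2 of metal tolerance protein 1 (1717 nt) held 53.3%, 57.1% and 28.2% in control, 54.0%, 56.8% and 49.9% in short-term and 74.1%, 66.1% and 63.8% in long-term libraries. The long-term shares were above all others, and the same transcript taken alone passed in long-term leaves (adjusted p = 0.0359, limma with Benjamini-Hochberg adjustment). In the tested MRS2-I gene, XM_010672534.2 (1815 nt) held 82.4%, 80.7% and 76.4% in control against 72.5%, 72.6% and 56.8% in short-term and 64.0%, 62.3% and 61.0% in long-term libraries, so that its share was lower in every treated library. In FRO8 the main transcript, XM_010680560.2 (2954 nt), took 61.3% ± 20.3 (SD, n = 3), 69.9% ± 30.7 and 80.9% ± 11.2, with overlapping groups. The split of FPKM among such similar transcripts is an estimate.

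**Figure D4:**
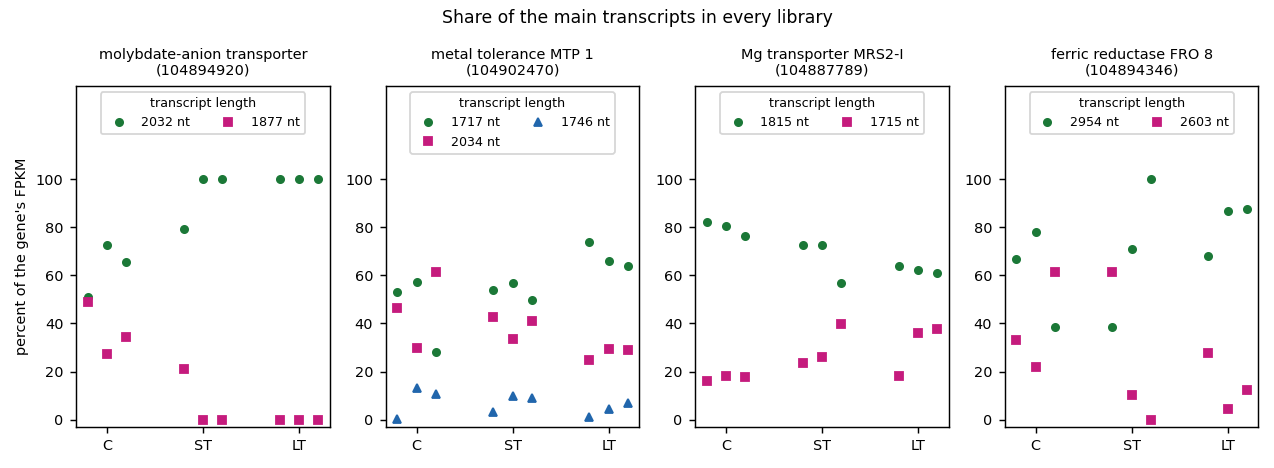
Share of the main transcripts, as percent of the FPKM of the gene, in each library of control (C), short-term (ST) and long-term (LT) leaves for 4 metal genes; symbols mark transcripts by their length in nucleotides. The 1877 nt transcript of the molybdate carrier is at 0% in 5 of the 6 treated libraries, and the 1815 nt transcript of MRS2-I is lower in all 6 treated libraries than in the controls. Transcripts of lower share in MRS2-I and FRO8 are not drawn.

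The metal genes did not lie together in the genome. Of the 25, 22 were on 7 chromosome sequences and 3 on unplaced ones, and no pair lay within 20 kb. The closest were HIPP9 and YSL3, 389477 bp apart. Long non-coding RNAs lay within 5 kb of 8 of the genes in 15 pairs, 5 of them antisense and overlapping, but only 2 exceeded a group mean of 0.5 FPKM and the highest value in any library was 2.51 FPKM. The antisense LNC_002527 (NC_025816.2, 51741544 to 51742530, plus strand) overlaps zinc transporter 6 and was at 0.50, 0.54 and 1.01 FPKM in control, 0.38, 0.38 and 0.30 FPKM in short-term and 0.33, 0.31 and 0.20 FPKM in long-term libraries. Its treated values lay below all controls, opposite to those of zinc transporter 6, at levels for which the counting error is unknown; it was not tested. The other, LNC_000953, lay 2228 bp from PAA2 and was at 0.60 to 2.51 FPKM with overlapping groups.

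Among other genes of metal handling, taken from 5 lists of product names, a few changed more in long-term leaves than any tested metal gene. HMA1, which had the largest rise of these lists, is itself a metal carrier that the match of names had missed. Of the 34 tested genes in these lists, 0 passed in short-term leaves (9 at an unadjusted p under 0.05 in limma, 3 higher and 6 lower, beside 22.2% of all genes). The counts in long-term leaves stand beside 31.1% of all genes called higher and 7.23% lower. In long-term leaves 2 of 8 genes of iron storage and iron-sulfur or heme assembly rose and 1 fell (median relative change -0.19), 3 of 11 copper proteins and chaperones rose and 4 fell (0.21), 1 of 2 genes for chelator precursors rose (-0.04), 5 of 12 other cation carriers rose and 1 fell (0.00) and the only regulator rose. The pattern for cation carriers also took in enzymes of citrate metabolism, which made up 6 of its 12 tested genes and 4 of its 5 rises. It also took in a manganese-dependent diphosphatase, so the counts and median of that list are not those of carriers alone.

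The gene that fell most among these was ferritin-3 (LOC104905965), an iron store of plastids, at 64.2, 44.1 and 85.5 FPKM in control, 13.6, 15.0 and 21.9 FPKM in short-term and 1.49, 2.71 and 6.99 FPKM in long-term libraries. The 3 groups did not overlap, and in long-term leaves the log2 change relative to all genes was -4.18 ± 0.41 (SE; adjusted p = 0.00211, limma with Benjamini-Hochberg adjustment). In the same list frataxin (LOC104892089) rose to 8.41 ± 0.86 FPKM from 5.21 ± 0.97 in control leaves (SD, n = 3, adjusted p = 0.0216). Ferrochelatase-2 (LOC104888230), of heme synthesis, rose from 4.59 ± 3.70 to 16.2 ± 7.70 FPKM with overlapping groups (adjusted p = 0.0231). A further ferrochelatase-2 and a further ferritin passed no test in long-term leaves: the former (LOC104904584) had means of 45.0 ± 4.58 before and 35.9 ± 4.60 FPKM after 7 days of treatment (adjusted p = 0.0815), and the latter (LOC104892547) of 22.9 ± 9.89 and 21.7 ± 6.30 FPKM (adjusted p = 0.938).

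Of the copper proteins, 2 Cu-Zn superoxide dismutases, their copper chaperone and plastocyanin fell. One Cu-Zn superoxide dismutase (LOC104902979) went from 193 ± 72.5 to 12.8 ± 7.42 FPKM (SD, n = 3) in long-term leaves, a relative log2 change of -4.17 ± 0.49 (SE; adjusted p = 0.00367, limma with Benjamini-Hochberg adjustment). The copper chaperone for superoxide dismutase (LOC104892389) fell from 16.3 ± 2.71 to 7.93 ± 1.21 FPKM (adjusted p = 0.00633) and plastocyanin (LOC104883872), the copper protein of photosynthetic electron transport, from 1475 ± 238 to 655 ± 110.5 FPKM (adjusted p = 0.0072). In contrast the copper transport protein ATX1 (LOC109133520) and 2 polyphenol oxidases rose, the latter from a family of similar genes among which FPKM may be split.

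HMA1 (LOC104894889), in Arabidopsis an ATPase of the chloroplast envelope, was at 17.9, 12.3 and 10.02 FPKM in control, 38.3, 53.9 and 34.5 FPKM in short-term and 88.0, 90.2 and 64.5 FPKM in long-term libraries. The 3 groups stood apart in the order of the days, and the long-term rise of 6.03-fold had a relative log2 change of 2.27 ± 0.24 (SE; adjusted p = 0.00181, limma with Benjamini-Hochberg adjustment). The transcription factor bHLH47 (LOC104899754), which in Arabidopsis acts in the response to iron shortage, rose to 17.4 ± 1.56 FPKM from 4.01 ± 1.38 in control leaves (SD, n = 3; relative log2 change 1.65 ± 0.20, adjusted p = 0.00211). Solute carrier family 40 member 3 (LOC104890754), a ferroportin-type carrier, fell from 22.9 ± 4.52 to 13.0 ± 1.63 FPKM (adjusted p = 0.0102), and citrate synthase (LOC104904585) rose from 4.71 ± 1.12 to 10.3 ± 1.77 FPKM (adjusted p = 0.00658). Glutamate-cysteine ligase (LOC104907834), which makes a precursor of glutathione and phytochelatins, rose from 14.8 ± 0.60 to 19.1 ± 1.58 FPKM (adjusted p = 0.0238), a change of 0.09 relative to the median of all genes.

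**Figure D5:**
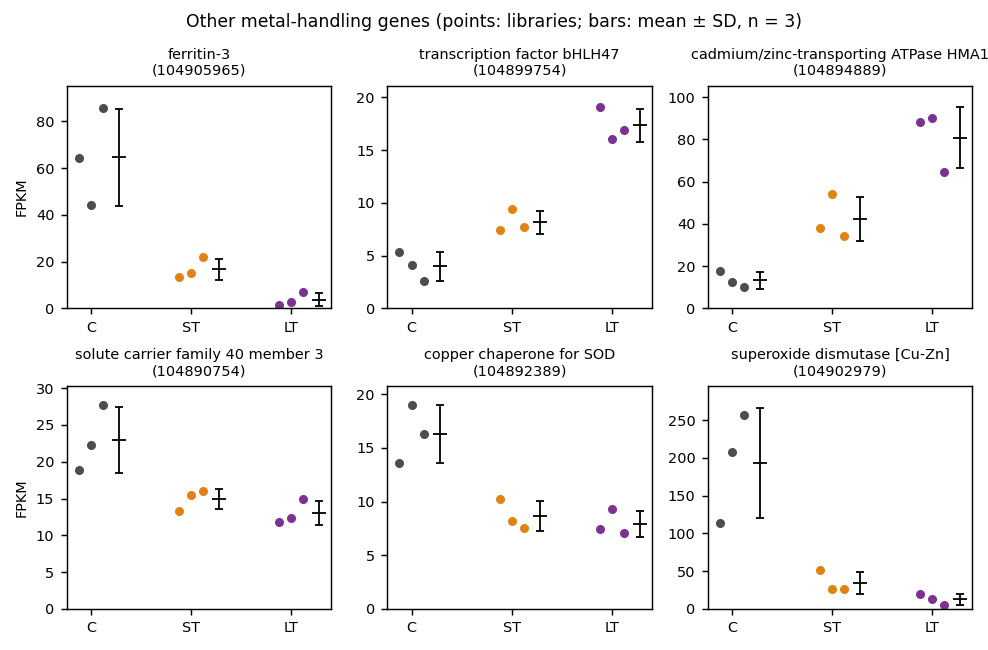
FPKM in each library (points) and mean ± SD (bars, n = 3) of 6 other genes of metal handling in control (C), short-term (ST) and long-term (LT) leaves, each axis from 0. Ferritin-3, solute carrier family 40 member 3, the copper chaperone and Cu-Zn superoxide dismutase are lower in all treated libraries than in the controls, and bHLH47 and HMA1 are higher.

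The genes whose log2(FPKM + 1) followed zinc transporter 4 most closely over the 9 libraries, among 14490 others, had Pearson r from 0.983 to 0.992. They were the genes 104890131, 104907005, 104903975 and 104892091, which carry no product name here, and the D-2-hydroxyglutarate dehydrogenase gene LOC104895090. The dehydrogenase gene was at a mean of 7.62, 12.7 and 13.8 FPKM in control, short-term and long-term leaves. The paper describes LOC104892091 as an ion transporter gene that was higher after short-term treatment. These r are a description, since the libraries of a group share their condition.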

How the data were processed

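FPKM of 43133 transcripts in 9 leaf libraries was used as deposited. The authors removed ribosomal RNA, made strand-specific libraries, aligned the reads with HISAT2 and assembled them with StringTie 1.3.1, and the deposited FPKM is set to transcript length and library size. The methods name Cuffdiff for FPKM. The program behind the deposited values was not settled, and the genome build was not given in the sources used here. FPKM was summed over the protein-coding transcripts of each of 24351 genes. Genes with a group mean over 0.5 FPKM were fitted as log2(FPKM + 1) with limma 3.58.1 (R 4.3.3; variance trend, a mean per group, all 9 libraries) and adjusted by the Benjamini-Hochberg method at 0.05. Sums, shares, distances and figures were made with Python 3.11.15, numpy 2.4.6, pandas 2.3.3 and matplotlib 3.10.9. The fit was tested on simulated data. Depth is unknown, and the 3 libraries per group limit the precision.

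The metal genes and the other lists were chosen with earlier results of these data known. Since product names stop at a first comma, some genes escaped the lists. Every metal gene is accounted for. Those past the threshold, the highest of each family, and all tested ferric reductases, metal-nicotianamine, Nramp and molybdate transporters are given by library, with up to 3 genes by smallest p from each other list. The fit assumes that the libraries of a group are separate samples, as labelled. Alternatives were a pseudocount of 0.1, no filter, a filter at 1 FPKM, median-ratio scaling, equal protein-coding FPKM, the 2 groups compared alone, a replicate block, library weights, the most abundant transcript and leaving out each library. Promoter and protein sequences were not used here.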

Additional observations from a re-analysis of the deposited data

How the results depend on the processing

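Over the 18 alternatives, 1205 of 1242 values of single metal genes kept their side of the threshold, 32 gained a call and 5 lost one. The relative change took the other sign in 40 values, 0 of them of genes called in the report and 2 with a call under the alternative alone: PAA2 in long-term leaves with weights (0.06) and the molybdate carrier by its most abundant transcript (0.27). Weighting the libraries called 5 metal genes in short-term leaves, 13 in long-term leaves (11 higher and 2 lower) and 7 between them (6 higher and 1 lower), where the fit without weights had 0, 8 and 0. Of all genes the weights called 15.1%, 53.3% and 26.2%, and the cause was not tested. Leaving out each library in turn gave 0 to 1 calls in short-term leaves, 6 to 11 in long-term leaves and 0 to 3 between them. The 11 calls, without long-term replicate 1, were 47.8% of the metal genes beside 37.5% of all genes. The 6, without control replicate 3, were all higher and came from 23 tested metal genes. They stood beside 1759 genes called higher and 564 lower of 14478. The 1 short-term call (4.35%) stood beside 3.6% of all genes, and the 3 between treated groups (13%) beside 8.74%. With a library left out, a change past the threshold moved by at most 1.43 times (FRO8, without long-term replicate 1). Median-ratio scaling changed the sign of the log2 change, taken without subtracting the median of all genes, in 6 metal genes without a call in long-term leaves (PAA2, NIPA2, the molybdate carrier, NIPA6 LOC104903968, and metal tolerance protein 10 and zinc transporter 5), in 1 in short-term leaves and in 4 between them. Replicate numbers did not pair the samples: same-numbered libraries had correlations of deviations from -0.61 to 0.35 in 9 pairs, and the other 18 pairs from -0.36 to 0.54. The replicate block gave 0, 8 and 0 calls among the 23 metal genes. Over all 14491 genes in long-term leaves it called 2540 higher and 706 lower, where the fit without the block called 4505 and 1047. A filter at 1 FPKM, no filter and a pseudocount of 0.1 changed no call of a metal gene. With FPKM alone, depth is unknown, and no counting error could be given for the weakly expressed genes.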
